A study of Mus musculus with 6 samples.

Results

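The interferon-induced genes described here are 42 genes chosen by symbol, each matched to 1 mouse Ensembl gene ID among the 47729 IDs in the count tables. They are genes that interferons are known to switch on, together with regulators of that response. The rule that picks them uses gene symbols only, but the list was proposed with earlier results of these data known. Counts and medians of the members, also beside those of all genes, are therefore descriptions. All 42 had enough counts to be tested, among 18174 genes that passed the count filter.

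The RNA came from DN1a/b cells, the earliest progenitor-containing fraction of the thymus, sorted by flow cytometry from C57BL/6 mice. The 3 groups had 2 libraries each and differed in RBPJ, which binds DNA and passes Notch signals on to target genes. Control cells had RBPJ throughout. RBPJ uninduced cells lacked it according to the labels, and in RBPJ 6 days induced cells its expression had been switched on for 6 days with doxycycline, first by intraperitoneal injection of a 2 mg/ml solution and afterwards through drinking water with 1 mg/ml. The sources used here do not give the alleles, the Cre line or other driver, the age of the mice or whether animals were pooled. Nor do they give whether the Control and uninduced mice received doxycycline, so in any comparison with the induced libraries RBPJ and the drug cannot be told apart. Nothing in the labels ties the libraries of 1 group to different animals, and the p-values then measure only library-to-library spread, which may be technical.

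Interferons are secreted proteins that cells release when they sense viral or other misplaced nucleic acids. Type I interferons bind the IFNAR receptor, whose kinases JAK1 and TYK2 phosphorylate STAT proteins. The complex ISGF3, which contains STAT2 and IRF9, then binds the interferon-stimulated response element (ISRE) in promoters. Type II interferon, interferon gamma, binds the IFNGR receptor and acts through JAK1 and JAK2 on STAT dimers, which bind the gamma-activated site (GAS). Many genes respond to both, and some are kept at a low level by tonic interferon signalling without infection. In the thymus, interferons are made constitutively by epithelial and dendritic cells.

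Promoters of the members were searched for both elements, because the members share known routes of induction. The windows came from RefSeq on GRCm38.p6 and ran from 250 bases before to 50 bases after each start. Of the 42 members, 33 had a window; Dhx58, Zbp1, Usp18, Oas2, Mx1, Rtp4, Iigp1, Parp9 and Parp14 had no entry. The ISRE was searched as GAAA, any 2 bases and GAAA again, and the GAS as TTCNNNGAA, on both strands, with overlap allowed. An ISRE match lay in 20 of the 33 members (60.6%) and in 3.99% of all 27025 genes in the table. A GAS match lay in 9 of the 33 (27.3%) and in 9.55% of all genes. A match describes letters in the window and is not a measured binding site.

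Shown first are 5 promoters of members that rose between uninduced and induced libraries and held an ISRE match. Slfn5 is at chr11:82951852-82951984 on the plus strand, Slfn8 at chr11:83020811-83021060 on the minus strand and Ddx60 at chr8:61927837-61928086 on the plus strand. Ifit1 is at chr19:34640744-34640870 on the plus strand and Oas3 at chr5:120777662-120777909 on the minus strand. Igtp, at chr11:58199306-58199555 on the plus strand, is added as a type II leaning gene with both elements. Each is written 5′ to 3′ on the strand of its gene, upstream of the start, without bases inside coding-gene exons. Capitals mark the ISRE matches and, in Igtp, also the GAS match.
Ddx60: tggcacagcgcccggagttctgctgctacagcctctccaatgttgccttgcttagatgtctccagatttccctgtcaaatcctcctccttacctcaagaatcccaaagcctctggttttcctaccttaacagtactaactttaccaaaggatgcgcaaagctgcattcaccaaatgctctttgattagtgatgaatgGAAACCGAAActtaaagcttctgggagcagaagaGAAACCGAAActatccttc
Ifit1: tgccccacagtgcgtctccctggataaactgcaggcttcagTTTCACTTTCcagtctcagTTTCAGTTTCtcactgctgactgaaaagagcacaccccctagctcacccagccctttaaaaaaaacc
Oas3: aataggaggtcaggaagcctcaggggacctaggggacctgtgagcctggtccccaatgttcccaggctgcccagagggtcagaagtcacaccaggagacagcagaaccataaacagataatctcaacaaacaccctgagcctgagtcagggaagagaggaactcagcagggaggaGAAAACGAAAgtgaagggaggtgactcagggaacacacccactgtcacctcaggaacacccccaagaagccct
Slfn8: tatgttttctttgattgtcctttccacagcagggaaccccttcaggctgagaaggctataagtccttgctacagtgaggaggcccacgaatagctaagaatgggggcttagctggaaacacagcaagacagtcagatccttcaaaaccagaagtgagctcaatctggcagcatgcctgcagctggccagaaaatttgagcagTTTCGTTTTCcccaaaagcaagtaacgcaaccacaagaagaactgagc
Slfn5: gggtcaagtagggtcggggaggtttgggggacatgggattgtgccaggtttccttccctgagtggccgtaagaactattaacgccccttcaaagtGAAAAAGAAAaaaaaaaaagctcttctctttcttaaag
Igtp: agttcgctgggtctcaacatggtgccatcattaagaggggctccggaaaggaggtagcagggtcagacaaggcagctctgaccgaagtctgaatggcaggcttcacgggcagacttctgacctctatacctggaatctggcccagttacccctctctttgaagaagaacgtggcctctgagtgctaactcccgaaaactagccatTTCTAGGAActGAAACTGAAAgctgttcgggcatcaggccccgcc

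Ddx60 held 2 ISRE matches in gene orientation, starting 53 and 19 bases before the start. Ifit1 also held 2, starting 104 and 85 bases before the start, and both read as TTTC, 2 bases and TTTC because they lie in the opposite orientation. The single matches began 75 bases before the start in Oas3, 48 in Slfn8 and 155 in Slfn5. The Slfn5 match sits within a run of A and G and lies inside the annotated span of the gene. In Igtp the GAS match began 45 and the ISRE match 34 bases before the start, with 2 bases between them. Among members with a window, the ISRE was found in 6 of 9 that rose between uninduced and induced libraries and in 14 of 24 that did not pass. The GAS was found in 0 of those 9 and in 9 of those 24, and neither difference was tested.

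Total counts ranged from 5098927 to 12932928 per library. Control replicate 2 and uninduced replicate 1 were the shallow libraries, and the other 4 had at least 10918205 counts. Levels are CPM, edgeR's read counts per unit of library size after scaling by the trimmed mean of M values (TMM). Rbpj, the targeted gene, stood at 74.1 and 72.9 CPM in Control, 28.2 and 30.0 CPM in uninduced and 198 and 203 CPM in induced libraries. Transcript thus remained in the uninduced libraries; the sources used here do not say which exons the allele lacks. The 6 listed DN1 markers summed to 0.52 and 0.50 of the Control mean in uninduced libraries and to 0.93 and 0.90 in induced ones. Notch1 weighed most in that fall, at 924 and 782 CPM in Control and 97.7 and 68.8 CPM in uninduced libraries. Kit was present at 372 to 631 CPM in all 6 libraries, with a mean of 443 CPM in Control and 514 CPM in uninduced. Cd24a was at 137 and 137 CPM in Control and 119 and 273 CPM in uninduced libraries. For Kit and Cd24a, 2 of the 6 markers, the fold change from Control to uninduced was above 0. From Control to uninduced, Notch1 (log2 fold change -3.36, adjusted p = 0.000186 in edgeR's test), Ptprc (-1.16, adjusted p = 0.00956) and Cd44 (-0.89, adjusted p = 0.0188) fell, and Flt3 was at -1.75 (adjusted p = 0.0525). These are bulk RNA samples, in which fewer cells of a type and less RNA per cell cannot be told apart.

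The induced libraries had the highest levels of nearly all members. Both induced libraries lay above all 4 others for 37 of the 42 members, where 7.72% of all tested genes did so. The mean was highest in induced libraries for 41 members and highest in Control for Irf1 only. Summed over the members, the level was 1614 and 1705 CPM in Control, 1228 and 1883 CPM in uninduced and 3494 and 3282 CPM in induced libraries. The uninduced libraries thus lay on either side of both Control libraries, and the induced ones lay above all.

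**Figure D1:**
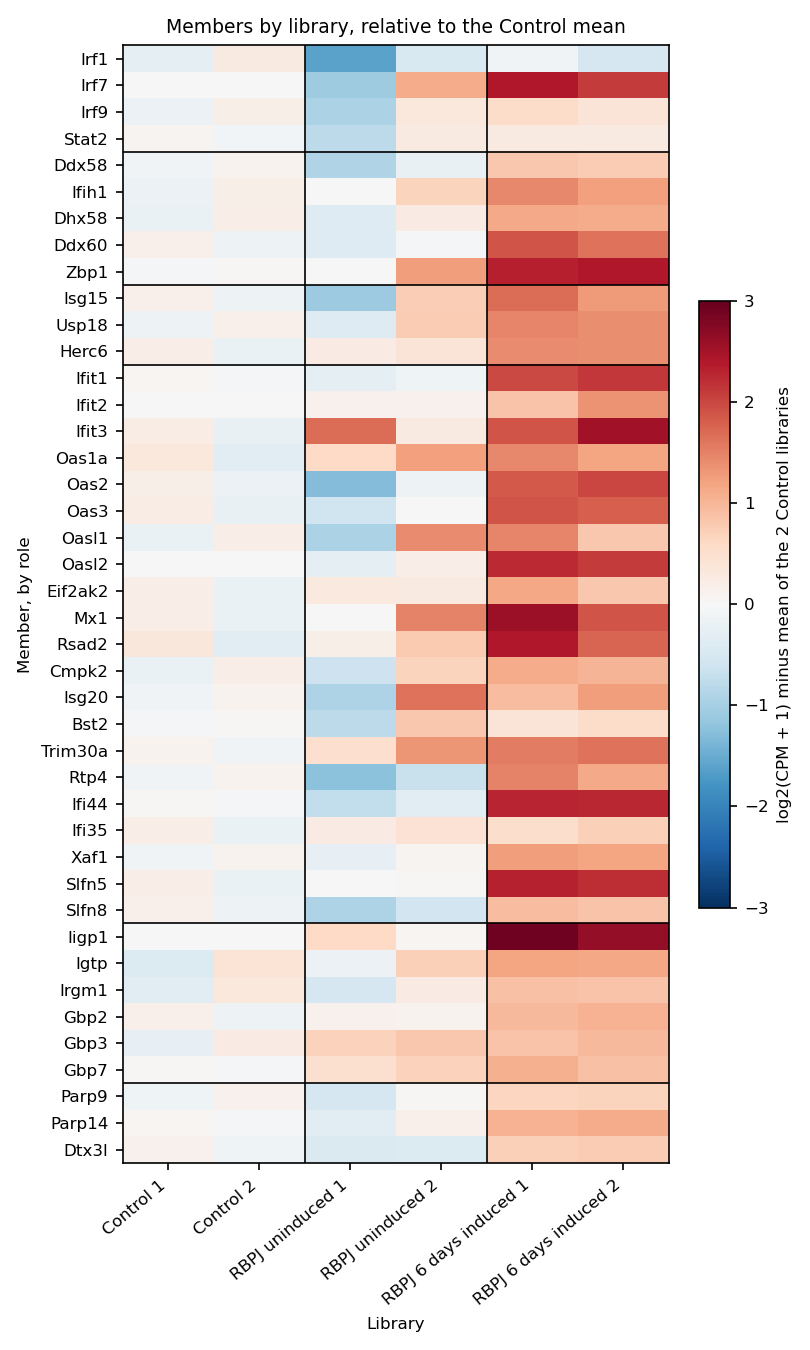
Level of each of the 42 members in each of the 6 libraries, as log2(CPM + 1) minus the member's mean over the 2 Control libraries, with members grouped by role. The columns of both induced libraries are highest for 37 members, and uninduced replicate 1 is below uninduced replicate 2 for 38.

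Between RBPJ uninduced and RBPJ 6 days induced libraries, 13 of the 42 members rose and 0 fell (edgeR's quasi-likelihood test with Benjamini-Hochberg adjustment over all genes, adjusted p under 0.05). Of all genes tested, 1.96% were called, 1.55% higher and 0.413% lower. An unadjusted p under 0.05 was reached by 29 members. The share of all genes at that level is not given here, so such counts, here and below, cannot be set against it. All 42 fitted log2 fold changes were above 0, from 0.16 in Gbp3 to 2.88 in Ifi44, with a median of 1.16 against -0.03 over all genes. The ranges of the groups did not overlap for 37 members, all higher in induced libraries (24.8% of all genes), and overlapped for Irf1, Bst2, Isg20, Oasl1 and Oas1a. DESeq2 called 25, and a fit of only the 4 libraries compared called fewer than 13. Leaving out single libraries moved the count in both directions.

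Between Control and RBPJ 6 days induced libraries, 6 members rose and 0 fell by the same test, where 0.187% of all genes were called higher and 0 lower. These were Ddx60, Ifit1, Oasl2, Ifi44, Slfn5 and Iigp1. An unadjusted p under 0.05 was reached by 35 members, and 22 were called higher by DESeq2 and 0 lower. The median log2 fold change was 1.24 against -0.02 over all genes. The ranges did not overlap for 41 members, all higher in induced libraries (20.8% of all genes), and overlapped for Irf1. The count moved in both directions when single libraries were left out, while the median stayed between 1.23 and 1.35. Shares of all genes called in those fits and by DESeq2 are not given here. Both comparisons use the same induced libraries, so their values are given side by side and not as support for each other.

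Between Control and RBPJ uninduced libraries, 0 members passed in either direction in edgeR's test, where 5.42% of all genes were called, 2.49% higher and 2.93% lower. An unadjusted p under 0.05 was reached by 8 members, and DESeq2 called 1 higher and 4 lower. The smallest adjusted p was 0.0721, for Trim30a, at a log2 fold change of 0.99. The median over members was 0.12 against -0.02 over all genes, from -0.99 in Rtp4 to 1.38 in Ifit3. The ranges did not overlap for 10 members that were higher in uninduced libraries (22.1% of all genes) and 7 that were lower (22.2%), and overlapped for 25. Calls changed with the uninduced library left out, toward higher without replicate 1 and toward lower without replicate 2. The median was -0.38 without uninduced replicate 2 and at most 0.21 when another library was left out.

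The uninduced libraries differed from each other in the members and in composition. Uninduced replicate 2 had the highest share of mitochondrial rRNA, 16.5% against 9.26% to 12.4% elsewhere, and the lowest TMM factor, 0.82. The part of this in the members' levels was not tested. Replicate 1 was the lower of the pair for 38 of the 42. It was the higher for 4 of the 42 and for 43% of all tested genes. The median absolute log2 ratio between the replicates was 0.62 for the members and 0.54 for all genes in uninduced libraries. In Control it was 0.31 for members and 0.42 for all genes, and in induced libraries 0.14 and 0.26. The members were thus closest to each other in the induced pair. The fit assumes a spread shared by the groups.

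**Figure D2:**
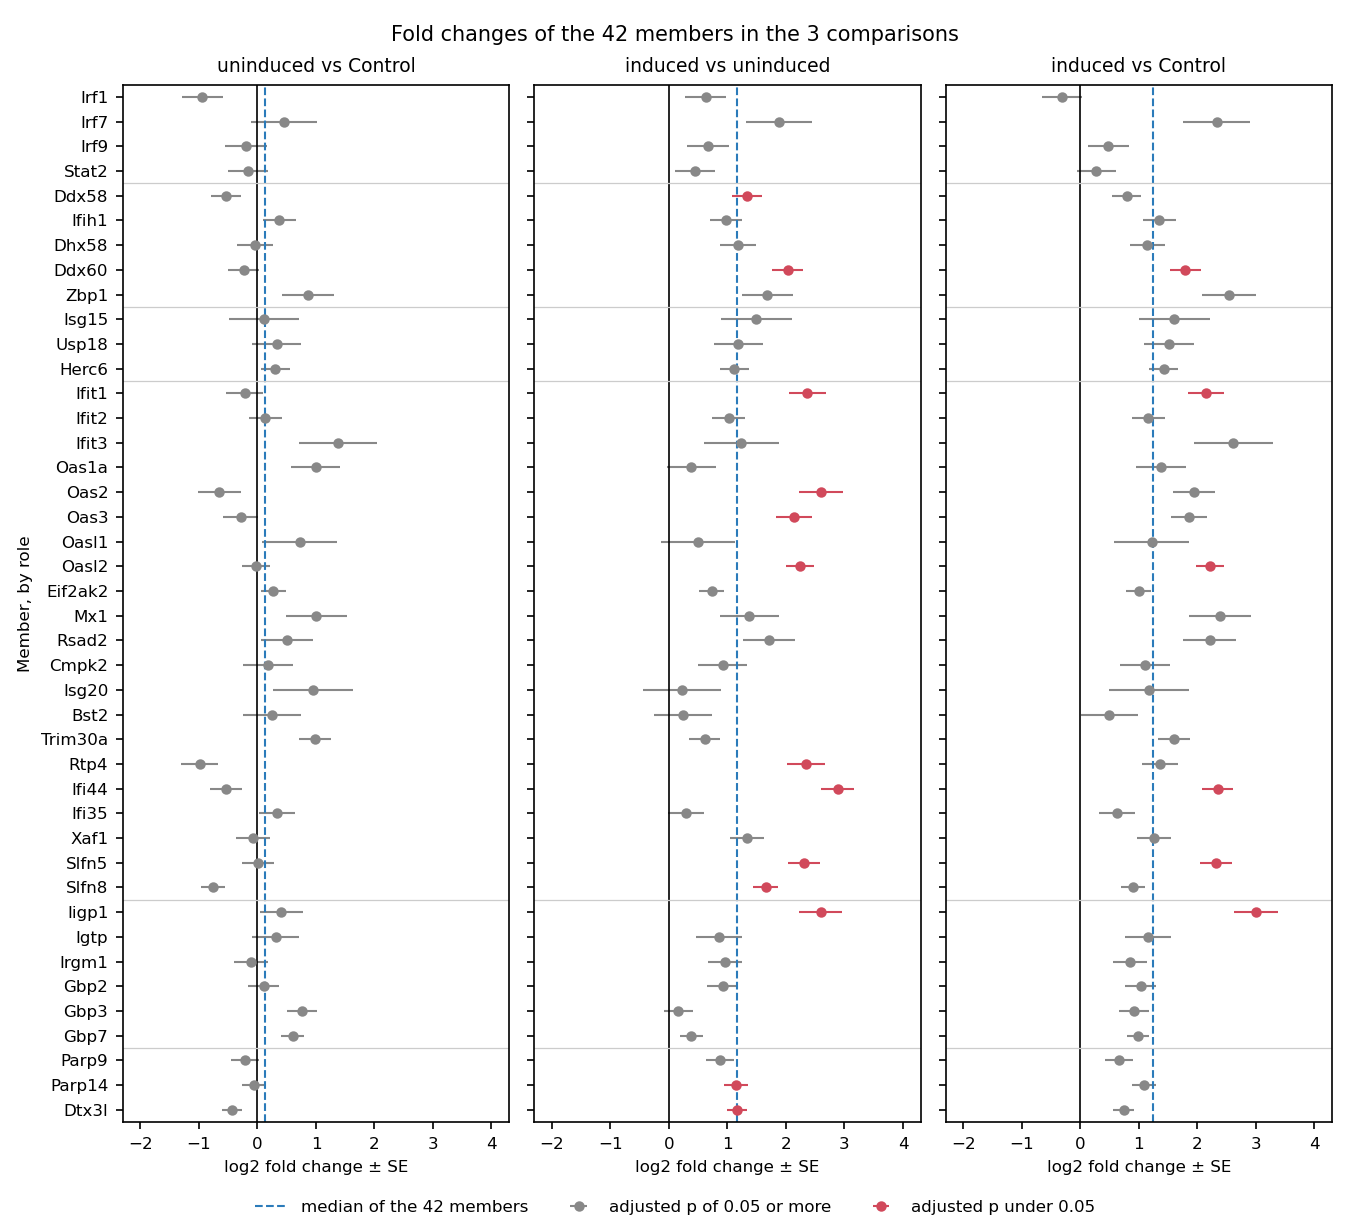
Fitted log2 fold change of each member, with bars of 1 standard error, in the 3 comparisons; red points passed an adjusted p of 0.05 in edgeR's quasi-likelihood test, grey points did not, and the dashed line is the median of the 42. Red points number 0 for uninduced against Control, 13 for induced against uninduced and 6 for induced against Control.

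Of the 4 transcription factors, 0 passed in any comparison in edgeR's test, with 1 at an unadjusted p under 0.05 in each comparison. DESeq2 called 1 lower between Control and uninduced, and 1 higher in each comparison with induced libraries. Irf7, the factor that amplifies type I interferon production, was at 15.5 and 15.9 CPM in Control, 6.95 and 35.4 CPM in uninduced and 87.6 and 70.5 CPM in induced libraries. Both induced libraries lay above the rest, while the uninduced ones fell on either side of Control. The Irf7 log2 fold change was 1.88 ± 0.56 (SE, n = 2 libraries per group) from uninduced to induced, with an adjusted p of 0.141 in edgeR's test, and 2.33 ± 0.57 from Control to induced, with an adjusted p of 0.263. From Control to uninduced it was 0.45 ± 0.56, with an adjusted p of 0.773. The Irf7 fold change from Control to induced stayed between 2.19 and 2.46 over the 13 alternative settings. The values that involve the uninduced group moved when 1 of its libraries was left out. From uninduced to induced the fold change was 1.21 (adjusted p = 0.0166) without uninduced replicate 1 and 3.52 (adjusted p = 2.66e-05) without replicate 2. From Control to uninduced it was 1.12 (adjusted p = 0.0153) and -1.19 (adjusted p = 0.0379) under the same omissions. Irf7 passed in 5 of the 13 alternative settings in each comparison with induced libraries, where adjusted p ranged from 7.35e-07 to 0.233 against uninduced and from 1.07e-09 to 0.717 against Control.

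Irf1, a factor induced most strongly by interferon gamma through a GAS, had the highest level per kb of exon of any member, at a mean of 54.2 CPM per kb over the 6 libraries. It stood at 225 and 332 CPM in Control, 89.4 and 199 CPM in uninduced and 253 and 194 CPM in induced libraries. Its groups overlapped in both comparisons with induced libraries, and it was lower in both uninduced libraries than in either Control library. Irf9 and Stat2, the DNA-binding and an activating part of ISGF3, had log2 fold changes from uninduced to induced of 0.67 and 0.44, which did not pass. Uninduced replicate 1 was the lowest library for both, at 39.3 and 20.7 CPM.

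Of the 5 sensors of RNA and other nucleic acids, 2 rose from uninduced to induced in edgeR's test, Ddx58 and Ddx60. Ddx60 also rose from Control to induced. DESeq2 called 5 of the 5 higher from uninduced to induced and 3 from Control to induced. All 5 had log2 fold changes above 0 in both comparisons, and the median from uninduced to induced was 1.33. Ddx60 (ENSMUSG00000037921, chr8:61928087-62038244 on mm10, plus strand) encodes a helicase linked to sensing of viral RNA. It was at 25.2 and 20.5 CPM in Control, 17.2 and 21.6 CPM in uninduced and 86.8 and 72.4 CPM in induced libraries. The induced libraries were far above the other 4, which lay close together. The Ddx60 log2 fold change was 2.03 ± 0.27 (SE) from uninduced, adjusted p = 0.00702 in edgeR's test, and 1.79 ± 0.26 from Control, adjusted p = 0.0338. Control and uninduced differed by -0.24 ± 0.26, adjusted p = 0.732. The call from Control was lost without Control replicate 1, Control replicate 2 or induced replicate 1, with adjusted p up to 0.181.

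Ddx58 (ENSMUSG00000040296, chr4:40203773-40239828 on mm10, minus strand) encodes RIG-I, a sensor of viral RNA that signals through MAVS. It had the highest level per kb of the sensors and stood at 66.0 and 77.7 CPM in Control, 37.6 and 61.0 CPM in uninduced and 127 and 121 CPM in induced libraries. The 3 groups did not overlap, and uninduced was the lowest. From uninduced to induced the Ddx58 log2 fold change was 1.33 ± 0.25 (SE), adjusted p = 0.0348 in edgeR's test. That call was lost without induced replicate 1 and in a fit of only the 4 libraries compared, with adjusted p up to 0.104. Its fold change was 0.79 ± 0.25 from Control to induced, adjusted p = 0.54, and -0.54 ± 0.25 from Control to uninduced, adjusted p = 0.296. Ifih1, Dhx58 and Zbp1 encode MDA5, LGP2 and a sensor of Z-form nucleic acid. They had log2 fold changes of 0.97, 1.18 and 1.68 from uninduced to induced and did not pass in edgeR's test.

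Of the 3 members of the ISG15 system, which attaches the ubiquitin-like protein ISG15 to other proteins and removes it, 0 passed in any comparison in edgeR's test. All 3 had an unadjusted p under 0.05 in both comparisons with induced libraries and 0 did between Control and uninduced; DESeq2 called 1 higher in each comparison with induced libraries. Herc6, the main ISG15 ligase in mice, was at 31.3 and 23.4 CPM in Control, 32.2 and 35.6 CPM in uninduced and 74.3 and 73.0 CPM in induced libraries. The induced libraries lay above all others. The Herc6 log2 fold change was 1.12 ± 0.24 (SE) from uninduced, adjusted p = 0.0553 in edgeR's test, and 1.42 ± 0.25 from Control, adjusted p = 0.0647. From Control to uninduced it was 0.30 ± 0.24, adjusted p = 0.592. The Herc6 rise from uninduced passed with DESeq2, other scalings and other filters. With the replicate number as a block or only the 4 libraries compared, it did not. The rise from Control passed with DESeq2, no filter, the block and the 4 libraries compared. With other scalings or the stricter filter, it did not. Isg15, the modifier itself and the highest of the 3 per kb, was at 8.0 and 6.19 CPM in Control, 2.78 and 12.4 CPM in uninduced and 24.9 and 18.5 CPM in induced libraries. Usp18, which removes ISG15 and restrains IFNAR signalling, had a log2 fold change of 1.18 from uninduced to induced. Of the 50-base stretches of Herc6, 12.5% also occur in other genes, mostly in the overlapping gene Gm45193 (12%).

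Of the 21 antiviral effectors, 8 rose from uninduced to induced and 4 of these, Ifit1, Oasl2, Ifi44 and Slfn5, also rose from Control to induced. The 8, called in edgeR's test, were Ifit1, Oas2, Oas3, Oasl2, Rtp4, Ifi44, Slfn5 and Slfn8. The median log2 fold change of the 21 was 1.33 from uninduced and 1.37 from Control. DESeq2 called 12 of the 21 higher from uninduced to induced and 13 from Control to induced. From Control to uninduced it called 1 higher and 2 lower.

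Ifi44 (ENSMUSG00000028037, chr3:151730922-151749960 on mm10, minus strand), a cytoplasmic antiviral protein, had the largest fold change of any member from uninduced to induced. It was at 17.1 and 16.1 CPM in Control, 9.56 and 13.2 CPM in uninduced and 85.3 and 83.3 CPM in induced libraries. The uninduced libraries were the lowest and the induced pair stood well apart from the other 4. The Ifi44 log2 fold change was 2.88 ± 0.28 (SE) from uninduced (adjusted p = 0.00234 in edgeR's test) and 2.34 ± 0.27 from Control (adjusted p = 0.0106). Ifi44 was, from Control to uninduced, at -0.54 ± 0.27, adjusted p = 0.327. The call from Control was lost without Control replicate 2, at an adjusted p of 0.0531.

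Ifit1 (ENSMUSG00000034459, chr19:34640871-34650009 on mm10, plus strand) encodes a protein that binds viral RNA lacking the host form of the cap. It was at 10.4 and 9.38 CPM in Control, 8.0 and 9.03 CPM in uninduced and 41.8 and 46.1 CPM in induced libraries. The Control and uninduced libraries all lay in a narrow band. The Ifit1 log2 fold change was 2.36 ± 0.32 (SE) from uninduced, adjusted p = 0.00801 in edgeR's test, and 2.14 ± 0.31 from Control, adjusted p = 0.0338. Ifit1 was, from Control to uninduced, at -0.22 ± 0.31, adjusted p = 0.812. The call from Control was lost when either Control library or either induced library was left out, with adjusted p up to 0.186. Its neighbours Ifit2 and Ifit3, on the same stretch of chromosome 19, had log2 fold changes of 1.02 and 1.24 from uninduced and did not pass. Ifit3 is uncertain, since 51.2% of its 50-base stretches also occur in Ifit3b.

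The OAS family senses double-stranded RNA and, in its catalytically active members, makes the second messenger that activates RNase L. Oasl2 (ENSMUSG00000029561, chr5:114896936-114912234 on mm10, plus strand) was at 28.9 and 28.3 CPM in Control, 23.1 and 33.0 CPM in uninduced and 139 and 126 CPM in induced libraries. Its Control and uninduced libraries overlapped and its induced libraries lay far above them. The Oasl2 log2 fold change was 2.23 ± 0.24 (SE) from uninduced, adjusted p = 0.00362 in edgeR's test, and 2.21 ± 0.24 from Control, adjusted p = 0.00915. Between Control and uninduced its value was -0.02 ± 0.24, adjusted p = 0.985. It was the one member whose calls in both comparisons were kept in all 13 alternative settings. Oas2 (ENSMUSG00000032690, chr5:120730333-120749853, minus strand) was at 27.7 and 21.6 CPM in Control, 9.39 and 21.7 CPM in uninduced and 89.9 and 100.5 CPM in induced libraries, and rose by a log2 fold change of 2.59 ± 0.37 from uninduced, adjusted p = 0.012. Oas3 (ENSMUSG00000032661, chr5:120753098-120777661, minus strand) was at 25.8 and 18.4 CPM in Control, 14.1 and 22.2 CPM in uninduced and 83.6 and 77.5 CPM in induced libraries, and rose by 2.14 ± 0.31, adjusted p = 0.0114.

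From Control to induced, the log2 fold changes of Oas2 and Oas3 were 1.94 ± 0.36 and 1.86 ± 0.30, which did not pass (adjusted p = 0.087 and 0.0558 in edgeR's test). Their values from Control to uninduced were -0.65 ± 0.36 (adjusted p = 0.39) and -0.29 ± 0.30 (adjusted p = 0.713). The Oas2 call from uninduced was lost in a fit of only the 4 libraries compared, at an adjusted p of 0.0611. Other genes of the family had smaller fold changes. Oas1a, in the same cluster, and Oasl1, next to Oasl2, had log2 fold changes of 0.38 and 0.50 from uninduced to induced, with overlapping ranges. Uninduced replicate 2 stood at 17.6 CPM for Oas1a and 39.0 CPM for Oasl1, inside the induced ranges. Of the 50-base stretches of Oas1a, 57.6% also occur in Oas1g. No difference between neighbouring genes was tested.

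Slfn5 and Slfn8 belong to the Schlafen family, whose members restrict viruses and affect the growth of T-lineage cells. Slfn5 (ENSMUSG00000054404, chr11:82951349-82964840 on mm10, plus strand) was at 16.6 and 12.6 CPM in Control, 14.6 and 14.9 CPM in uninduced and 75.2 and 70.6 CPM in induced libraries. Its Control and uninduced levels coincided and its induced levels were several-fold higher. The Slfn5 log2 fold change was 2.30 ± 0.27 (SE) from uninduced, adjusted p = 0.00517 in edgeR's test, and 2.31 ± 0.27 from Control, adjusted p = 0.0128. Between Control and uninduced Slfn5 differed by 0.01 ± 0.27, adjusted p = 0.994. The call from Control was lost without Control replicate 2, at an adjusted p of 0.0678. Reads of the antisense gene Slfn5os, which overlaps it in 10.7% of its 50-base stretches, cannot be told apart, because the sources used here do not give the strand setting of the counting.

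Slfn8 (ENSMUSG00000035208, chr11:83002158-83020810 on mm10, minus strand) showed another pattern. It was at 89.8 and 73.6 CPM in Control, 42.4 and 54.2 CPM in uninduced and 156 and 148 CPM in induced libraries. The 3 groups did not overlap, with uninduced the lowest. From uninduced to induced Slfn8 rose by a 1.65 ± 0.21 (SE) on the log2 scale, adjusted p = 0.00676 in edgeR's test, and from Control to uninduced the value was -0.76 ± 0.21, adjusted p = 0.0754. From Control to induced Slfn8 was at 0.89 ± 0.21, adjusted p = 0.213. Of its 50-base stretches, 14.6% also occur in other genes, mostly in Slfn10-ps (10.1%). Rtp4 (ENSMUSG00000033355, chr16:23520291-23614222 on mm10, plus strand), which limits virus replication, had the same order of groups, at 19.5 and 22.8 CPM in Control, 8.35 and 12.8 CPM in uninduced and 60.9 and 47.9 CPM in induced libraries. Rtp4 rose by 2.35 ± 0.32 from uninduced to induced, adjusted p = 0.00928 in edgeR's test. That call was lost in a fit of only the 4 libraries compared, at an adjusted p of 0.0525. Of the 50-base stretches of Rtp4, 11.6% also occur in Gm45338. Rtp4 was at 1.37 ± 0.31 from Control to induced, adjusted p = 0.194, and at -0.99 ± 0.32 from Control to uninduced, adjusted p = 0.12.

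Of the 13 effectors that did not pass in edgeR's test, Eif2ak2, which encodes the double-stranded RNA kinase PKR, had the highest level per kb. It was at 96.9 and 73.1 CPM in Control, 103 and 102 CPM in uninduced and 191 and 149 CPM in induced libraries. The induced libraries lay above all others at a log2 fold change of 0.73 from uninduced. Mx1, a dynamin-like GTPase whose gene is defective in C57BL/6 mice, and Rsad2, which encodes viperin, had log2 fold changes of 1.38 and 1.70 from uninduced to induced. Cmpk2, a mitochondrial nucleotide kinase beside Rsad2 on chromosome 12, had 0.92, and Xaf1, a pro-apoptotic factor, 1.33 at an adjusted p of 0.0545 in edgeR's test. The values for Trim30a, a ubiquitin ligase, Ifi35, Bst2, which encodes tetherin, and the exonuclease gene Isg20 lay between 0.23 and 0.61. Bst2 and Isg20 were highest in uninduced replicate 2, at 26.0 and 32.5 CPM.

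Of the 6 interferon-inducible GTPases, which act on the membranes around intracellular pathogens, Iigp1 rose in both comparisons with induced libraries in edgeR's test. The other 5 did not pass in any comparison in that test. DESeq2 called 3 of the 6 higher from uninduced to induced and 2 from Control to induced. Iigp1 (ENSMUSG00000054072, chr18:60376027-60392634 on mm10, plus strand) was at 5.18 and 5.13 CPM in Control, 8.35 and 5.46 CPM in uninduced and 45.5 and 37.5 CPM in induced libraries. It had the lowest level per kb of all members, at a mean of 3.07 CPM per kb over the 6 libraries. It also had the largest fold change from Control of any member. The Iigp1 log2 fold change was 3.01 ± 0.37 (SE) from Control, adjusted p = 0.0175 in edgeR's test, and 2.60 ± 0.37 from uninduced, adjusted p = 0.0108. Iigp1 was, from Control to uninduced, at 0.41 ± 0.37, adjusted p = 0.644. The call from Control was lost when either Control library was left out, with adjusted p up to 0.09, and the call from uninduced without induced replicate 1 and in a fit of only the 4 libraries compared, at an adjusted p of 0.0563.

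Gbp7, a guanylate-binding protein gene with the highest level per kb of the 6, was at 60.9 and 58.6 CPM in Control, 84.1 and 97.1 CPM in uninduced and 127 and 110 CPM in induced libraries. Its groups did not overlap and stood in the order Control, uninduced, induced. Its neighbours Gbp3 and Gbp2 had log2 fold changes from uninduced to induced of 0.16 and 0.92, beside 0.38 for Gbp7. Gbp3 stood at 48.5 and 52.2 CPM in uninduced and 53.9 and 58.6 CPM in induced libraries, against 24.7 and 35.0 CPM in Control. Igtp and Irgm1, immunity-related GTPase genes, had log2 fold changes of 0.85 and 0.96. Igtp shares 11.8% of its 50-base stretches with the overlapping gene Irgm2, and Gbp7 shares 12.7% with other genes, mostly with Gm43802 (10.5%).

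Of the 3 PARP and DTX3L genes, Parp14 and Dtx3l rose from uninduced to induced in edgeR's test and Parp9 did not pass. DESeq2 called 3 of the 3 higher from uninduced to induced and 2 from Control to induced. From Control to uninduced it called 1 lower. The 3 genes encode ADP-ribosyltransferases and a ubiquitin ligase that pairs with PARP9, and lie together on chromosome 16. Dtx3l (ENSMUSG00000049502, chr16:35926511-35939151 on mm10, minus strand) was at 183 and 155 CPM in Control, 124 and 127 CPM in uninduced and 277 and 287 CPM in induced libraries. The 3 groups did not overlap and uninduced was the lowest. Dtx3l rose by a log2 fold change of 1.17 ± 0.17 (SE) from uninduced, adjusted p = 0.0136 in edgeR's test, and the call was lost without induced replicate 1, at an adjusted p of 0.0644. Its value was 0.74 ± 0.17 from Control to induced, adjusted p = 0.211, and -0.43 ± 0.17 from Control to uninduced, adjusted p = 0.211. Parp14 (ENSMUSG00000034422, chr16:35832874-35871544 on mm10, minus strand) was at 136 and 125 CPM in Control, 104 and 146 CPM in uninduced and 270 and 285 CPM in induced libraries. Parp14 rose by 1.15 ± 0.20 from uninduced, adjusted p = 0.0259 in edgeR's test. That call was lost when either induced library was left out and in a fit of only the 4 libraries compared, with adjusted p up to 0.0853. Parp14 was at 1.09 ± 0.20 from Control to induced, adjusted p = 0.0857, and at -0.06 ± 0.20 from Control to uninduced, adjusted p = 0.936. Dtx3l and Parp9 overlap on opposite strands over 8.02% of the 50-base stretches of Dtx3l, where reads cannot be told apart.

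**Figure D3:**
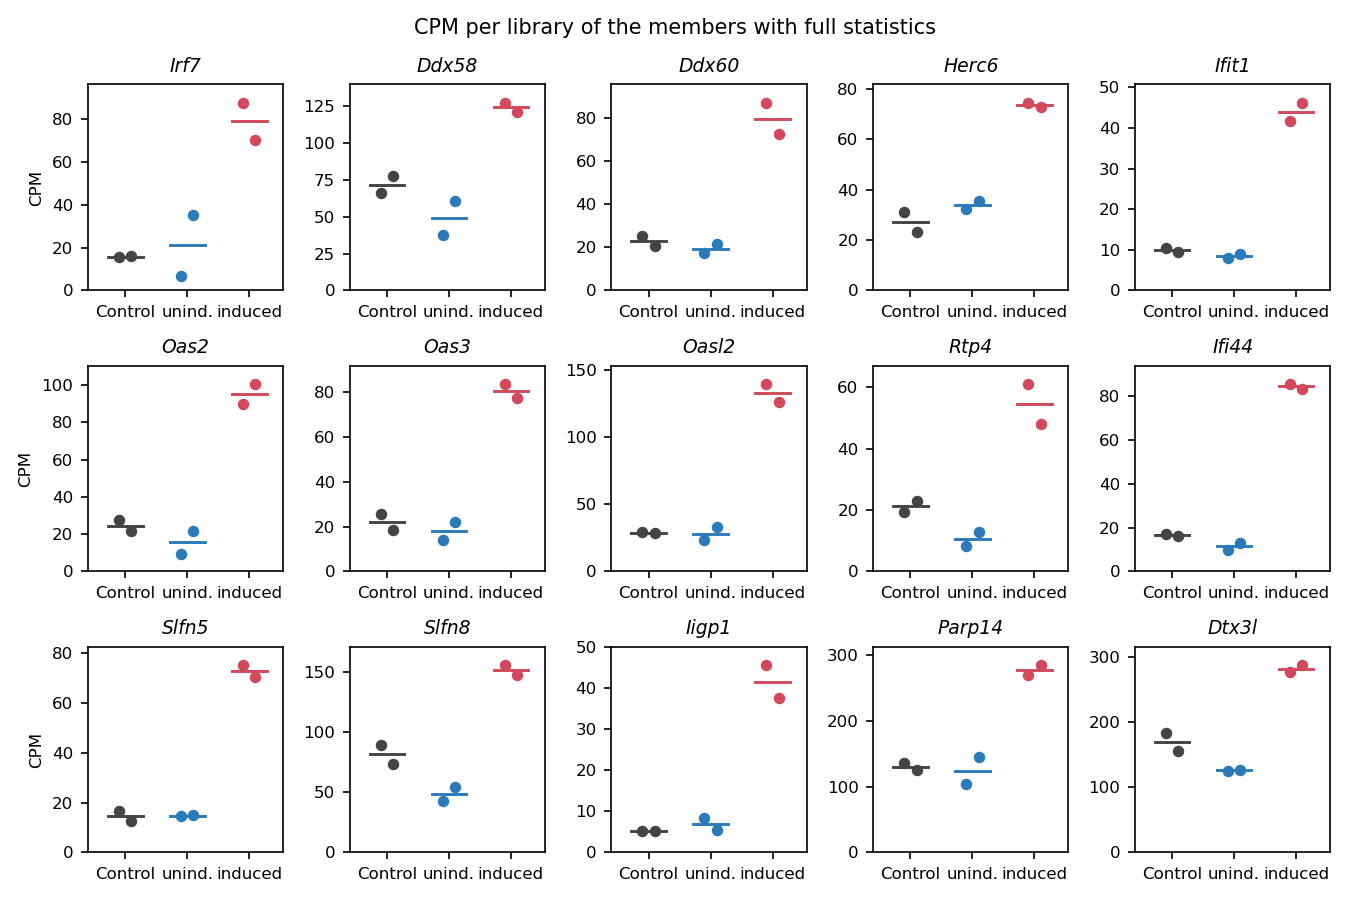
CPM of the members with full statistics in each library, 1 panel per gene on a linear axis from 0; points are libraries, short lines are group means of 2 libraries, and "unind." stands for RBPJ uninduced. Both induced libraries are above all 4 others in each of the 13 genes that rose from uninduced to induced.

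The members were also divided by the interferon they chiefly respond to, from textbook knowledge: 25 lean to type I, 7 to type II and 10 respond to both. From uninduced to induced, 10 of the 25 type I members rose in edgeR's test, 2 of the 10 shared members and 1 of the 7 type II members. Their median log2 fold changes were 1.38, 0.77 and 0.85. From Control to induced, 5, 0 and 1 rose, with medians of 1.51, 0.70 and 0.99. DESeq2 called 17, 5 and 3 higher from uninduced to induced and 15, 5 and 2 from Control to induced. In edgeR's test, Iigp1 was the type II member that rose in both comparisons. Summed CPM of the type I members in the induced libraries were 2.91 and 2.64 times the Control mean, against 1.83 and 1.88 times for the shared members and 1.42 and 1.26 times for the type II members, a sum in which Irf1 weighs most. Listed genes outside the members had medians from uninduced to induced of 0.75 where they lean to type I and 0.88 for type II. Their medians from Control to induced were 1.05 and 0.84. Differences between the classes were not tested, and membership of a class is not exclusive, since type II interferon also induces many type I genes.

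**Figure D4:**
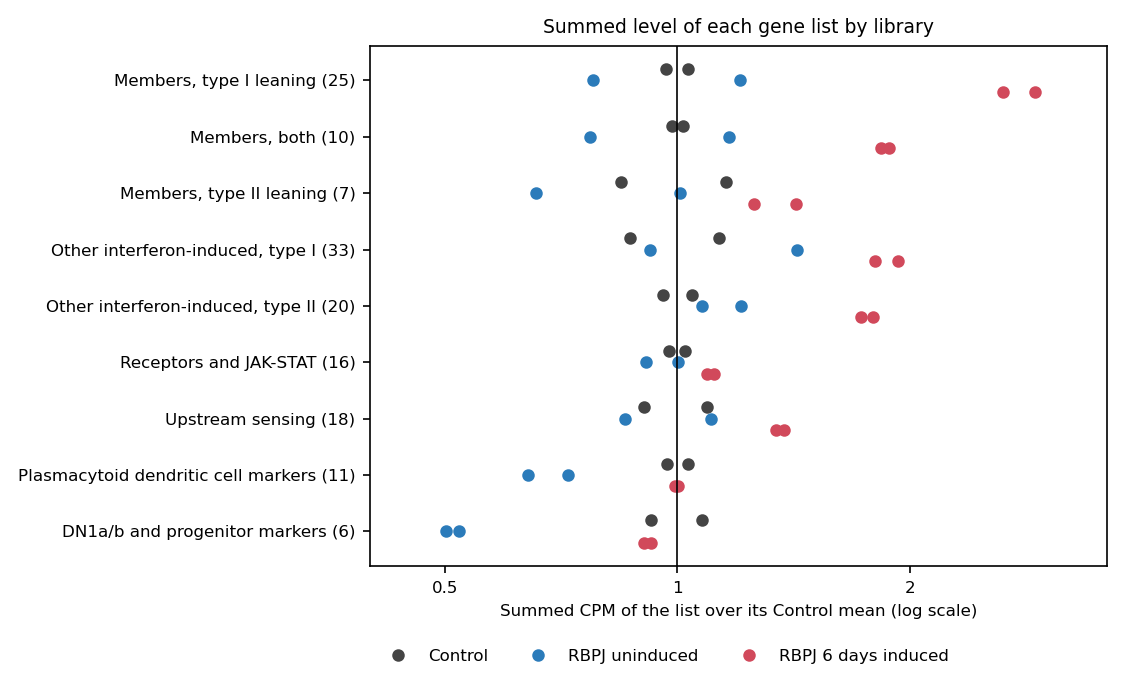
Summed CPM of gene lists in each library as a ratio to the mean of the Control libraries, with the number of genes in brackets. In the induced libraries the type I members are at 2.91 and 2.64, the receptor and JAK-STAT genes at 1.09 and 1.12 and the plasmacytoid dendritic cell markers at 0.99 and 1.00.

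The interferons themselves were near the limit of detection. Of 21 listed ligand genes, 3 had no count in any library and 3, Ifng, Ifnk and Ifna12, had enough counts to be tested. In all 3 comparisons 0 passed in edgeR's test or in DESeq2, and 0 had an unadjusted p under 0.05. Summed over the 21, the level was 7.46 and 14.9 CPM in Control, 3.65 and 5.46 CPM in uninduced and 6.54 and 4.38 CPM in induced libraries. Ifnb1, the interferon beta gene, did not exceed 1.45 CPM in any library. Ifng stood at 6.02 and 4.42 CPM in Control, 0 and 4.01 CPM in uninduced and 1.85 and 1.21 CPM in induced libraries. The induced libraries were thus below both Control libraries in Ifng.

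All 16 genes of the receptors and the JAK-STAT pathway were tested, and 0 passed in either comparison with induced libraries in edgeR's test, with 4 at an unadjusted p under 0.05 against uninduced and 3 against Control. DESeq2 called 0 against uninduced and 1 higher against Control. Ifnar1 and Ifnar2, the type I receptor chains, stood at 65.7 and 71.4 CPM and at 40.8 and 43.9 CPM in induced libraries, inside the ranges of 57.7 to 82.8 CPM and 41.4 to 51.9 CPM of Control except that Ifnar2 in induced replicate 1 was just below. In uninduced libraries Ifnar2 was lower than in all others, at 21.0 and 27.2 CPM, and Ifnar1 did not exceed 63.3 CPM. Ifngr1, the ligand-binding chain of the type II receptor, was at 46.1 and 53.8 CPM in Control, 140 and 128 CPM in uninduced and 86.1 and 102 CPM in induced libraries. It rose from Control to uninduced by a 1.43 ± 0.20 (SE) on the log2 scale, adjusted p = 0.0055, while Socs3, a feedback inhibitor of JAK kinases, fell by 1.39 on the log2 scale, adjusted p = 0.0303. Ifngr2 ranged from 10.6 to 26.9 CPM over the 6 libraries, Il10rb, a chain of the type III receptor, from 16.4 to 34.0 CPM and Ifnlr1, its partner, from 0 to 4.24 CPM. The kinases Jak1, Jak2 and Tyk2 ranged from 274 to 371, from 80.1 to 137 and from 26.5 to 47.4 CPM.

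Of 18 genes of upstream nucleic acid sensing, 17 were tested. From uninduced to induced 2 rose: Tmem173, which encodes the adaptor STING, by a log2 fold change of 1.54 (adjusted p = 0.026 in edgeR's test), and Tlr7, a receptor for single-stranded RNA, by 3.54 (adjusted p = 0.0159). Both had fallen from Control to uninduced, by 1.57 and 3.02 on the log2 scale. Tmem173 stood at 63.8 and 45.8 CPM in Control, 20.7 and 16.4 CPM in uninduced and 56.0 and 51.3 CPM in induced libraries, and Tlr7 at 23.5 and 11.9, at 1.22 and 3.01, and at 21.0 and 30.2 CPM. Their induced levels overlapped those of Control, unlike those of 41 of the 42 members. From Control to induced 0 of the 17 passed in edgeR's test, with 3 at an unadjusted p under 0.05 and 2 called higher by DESeq2.

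Further interferon-induced genes that are not members were listed as well. Of 32 tested genes that lean to type I, 2 rose from uninduced to induced, Ifi203 by a log2 fold change of 2.01 (adjusted p = 0.00498 in edgeR's test) and Epsti1 by 1.61 (adjusted p = 0.00928), and 0 fell, while 5 had a fold change below 0 and DESeq2 called 6 higher and 1 lower. The median was 0.75, and 1.05 from Control to induced, where 0 passed, with 16 at an unadjusted p under 0.05 and 6 called higher by DESeq2. From Control to uninduced, Ifi27l2a, Lgals9 and Trim30d rose, and Ifi203 and Ly6e fell. Of 18 tested genes that lean to type II, Tgtp2, which has the near-identical copy Tgtp1, rose from uninduced to induced by 1.58 (adjusted p = 0.0427), while 5 had a fold change below 0 and DESeq2 called 3 higher. Their median was 0.88, and 0.84 from Control to induced, where 0 passed, with 8 at an unadjusted p under 0.05 and 4 called higher by DESeq2.

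Markers of other cell types differed between the libraries. Plasmacytoid dendritic cells express many interferon-induced genes, among them the members Irf7 and Bst2. Their 11 other listed markers summed to 356 and 335 CPM in Control, 221 and 249 CPM in uninduced and 343 and 346 CPM in induced libraries. Tcf4, at 153 and 163 CPM, and Runx2, at 118 and 108 CPM, made up most of the sum in induced libraries. Of the 9 that were tested, 7 had a log2 fold change above 0 from uninduced to induced, 6 had an unadjusted p under 0.05, 1 rose in edgeR's test and DESeq2 called 2 higher. The one that rose was Lair1, an inhibitory receptor gene, at 39.0 and 23.7 CPM in Control, 13.9 and 11.4 CPM in uninduced and 53.7 and 57.4 CPM in induced libraries. Its induced libraries lay above all others, as for 37 of the members. From Control to induced 0 passed in edgeR's test, with 2 at an unadjusted p under 0.05 and 1 called lower by DESeq2. Siglech, Klk1 and Cd209d, 3 of the 11, were low in every group and reached at most 1.95, 1.00 and 0.22 CPM in any library. Others of the 11 were higher. Ccr9 was at 18.2 and 44.2 CPM in Control, 1.56 and 2.01 CPM in uninduced and 9.54 and 7.27 CPM in induced libraries. Spib and Ly6d reached 82.1 and 23.1 CPM in uninduced replicate 2 and at most 2.42 and 9.75 CPM elsewhere.

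Other lineages set the uninduced libraries apart. Neutrophil and granulocyte precursor markers summed to 511 and 456 CPM in Control, 4263 and 3245 CPM in uninduced and 669 and 1519 CPM in induced libraries. Mast cell and basophil markers summed to 75.7 and 52.5, 697 and 443, and 204 and 179 CPM in the same order. B-lineage markers reached 761 CPM in uninduced replicate 2 and 7.01 to 40.3 CPM in the other 5 libraries. That library also had more of 38 of the 42 members than uninduced replicate 1, and whether the 2 differences are related was not tested. Erythroid markers summed to 5.71 and 16.6 CPM in Control, 165 and 478 CPM in uninduced and 131 and 71.5 CPM in induced libraries. From Control, 4 of their 7 genes rose to uninduced and 1, Car1, rose to induced. In mast cell and basophil markers, too, both induced libraries lay above Control, and 1 of 6 tested genes, Ms4a2, rose. Later thymocyte markers reached 410 CPM in Control replicate 2 and 12.7 to 32.1 CPM elsewhere. Natural killer and innate lymphoid markers stood at 46.5 and 45.7 CPM in induced libraries, inside the uninduced range of 1.56 to 63.7 CPM and above the Control values of 11.4 and 20.7 CPM. Conventional dendritic cell markers ranged from 10.6 to 54.7 CPM, macrophage and monocyte markers from 52.8 to 109 CPM and stromal markers from 96.1 to 162 CPM. The part of these cell types in the members' differences was not tested.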

How the data were processed

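RNA was measured in 6 libraries, 2 per group, with groups and replicate numbers as the titles give them. The deposited files hold raw read counts per Ensembl gene. Per the submitters' processing notes, HISAT2, StringTie, HTSeq and build mm10 were used; the sources used here give no versions, roles, annotation or strand setting. GENCODE vM21 matched 47310 of 47729 gene IDs.

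Counts were filtered (filterByExpr, minimum count 10, minimum total 15), scaled by TMM and tested in edgeR 4.0.16 (R 4.3.3) with 1 quasi-likelihood fit of group means over all 6 libraries (3 residual degrees of freedom). P-values were adjusted over 18174 genes with a threshold of 0.05. A standard error is the fold change divided by the root of F. The fit was also run on simulated counts, in which each gene had 1 spread shared by all groups. Replicate spread differed between the real groups, so no conclusion is drawn from that run. Alternatives were DESeq2 1.42.0, other scalings and filters, a replicate block, fits of the 4 libraries compared and the omission of each library in turn.

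The members and lists were chosen with earlier results of these data known. Full statistics are given for members past the threshold in any comparison and, in a role group without one, for the member with the smallest p. Values per library are given for those and for the member of each role group with the highest level per kb. Pathway genes past the threshold, the receptors, Jak1, Jak2 and Tyk2 are also named; 1 further gene that the rule names is not reported here.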

Additional observations from a re-analysis of the deposited data

How the results depend on the processing

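Each group has 2 libraries, so 3 residual degrees of freedom limit every test, and small fold changes can be missed. Control replicate 2 and uninduced replicate 1 were shallower than the other 4 libraries. In all 13 alternatives 0 members fell in either comparison with induced libraries. The calls from uninduced to induced of Ddx60, Ifit1, Oas3, Oasl2, Ifi44, Slfn5 and Slfn8 were kept in all 13 alternatives, and from Control to induced only that of Oasl2 was.

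From Control to uninduced, where 0 passed, DESeq2 called 1 member higher and 4 lower, factors by relative log expression, upper quartile factors and the stricter filter each 1 lower, and no filter 1 higher and 1 lower. Leaving out a library gave 0 to 6 higher and 0 to 7 lower, and a median of -0.38 to 0.21. From uninduced to induced, 13 became 25 with DESeq2, 23 with no filter and 8 with only the 4 libraries compared, and 9 to 33 when a library was left out. From Control to induced, 6 became 22 with DESeq2, 23 with no filter, 22 with only the 4 libraries compared and 1 to 31 when a library was left out. The median of that comparison, 1.24, became 1.17 with DESeq2, 1.17 with relative log expression factors, 1.15 with upper quartile factors, 1.27 with no filter, 1.20 with the stricter filter, 1.20 with the 4 libraries compared and 1.23 to 1.35 when a library was left out. The cause of these changes was not tested. Shares of all genes called under each alternative are not given here, so the members' counts are not set against them.

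Among the 15 members with full statistics, changes of direction were found only from Control to uninduced. The other members were not followed gene by gene over the alternatives. The log2 fold change of Slfn5, 0.01, became -0.0537 with DESeq2, -0.0495 with relative log expression factors, -0.0804 with upper quartile factors, -0.0193 with no filter, -0.0142 with the stricter filter and -0.0043 with only the 4 libraries compared. When a library was left out it ran from -0.26 to 0.26 for Slfn5, from -0.69 to 0.0191 for Oas3, from -0.32 to 0.15 for Oasl2 and from -0.35 to 0.10 for Parp14. For Irf7 it ran from -1.19 without uninduced replicate 2 (adjusted p = 0.0379 in edgeR's test) to 1.12 without uninduced replicate 1 (adjusted p = 0.0153).

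The labels give each group replicates 1 and 2, but libraries with the same number share only a number: their deviations from the group means correlated at -0.03, 0.02 and 0.01 over 18174 genes in the 3 pairs of groups. With the replicate number as a block, 16 members rose from uninduced to induced and 12 from Control to induced, at a median of 1.30, and 0 passed from Control to uninduced.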
